A study of Mus musculus with 10 samples.

Results

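The RNA of femoral (bone marrow) B cells was compared between 2 genotypes of mice, named deltaEmu and RAG2_deficient, in 2 libraries each. These are 4 of the 10 libraries of the series, and they were compared over all genes outside chromosomes X and Y. By its name, deltaEmu lacks Eµ, an enhancer of the immunoglobulin heavy chain locus (IgH) that lies in the intron between the J segments and Ighm, and RAG2_deficient lacks RAG2, a subunit of the recombinase that joins antibody gene segments. Both groups carry the C57BL6 strain label and an age of 8 to 10 weeks, and their cells were lysed without culture. The genotype fields name the deltaEmu libraries deltaEmu5 and deltaEmu7, and those numbers serve here as replicate numbers, while the RAG2_deficient libraries are replicates 1 and 2. The design text speaks of pooled RNA and gives no number of animals per pool, so the p-values measure only the spread between these libraries. The labels do not say how B cells were purified. Femoral cells of wild-type mice were not analysed here. The groups differ in both alleles, so effects of Rag2 and of Eµ cannot be told apart. The third femoral group is 2KO. The labels do not spell out its name, and it shared the fit and is given beside some values.

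Several facts of the libraries bear on every result. Total counts were 19606981 and 17710154 in deltaEmu replicates 5 and 7, and 17950487 and 17890591 in RAG2_deficient replicates 1 and 2. The table names its columns by number, and they were read by the sequencing index that ends each sample description. The numbers in the sample titles give the same sample for the RAG2_deficient columns, but would take other columns for deltaEmu. Read by index, Rag1, a gene of developing lymphocytes, lay at 152 to 1060 in the 6 femoral columns and at no more than 0.0391 in the 4 splenic ones, as CPM of the unadjusted total, a check made after the values had been seen. All other femoral CPM are counts scaled to the TMM-adjusted library size. The 4 summed Y-linked genes Ddx3y, Eif2s3y, Kdm5d and Uty reached 164 and 132 CPM in deltaEmu but 0.311 and 0 CPM in RAG2_deficient, so sex and genotype cannot be told apart either. Where a pair of values is set against another, the first is of deltaEmu and the second of RAG2_deficient, in replicate order. Mitochondrial genes took 2.85% and 3.52% of counts in deltaEmu and 4.88% and 5.74% in RAG2_deficient. RAG2_deficient replicate 1 stood apart, with 11.8% of its counts on the small nuclear RNA gene Rn7sk (4.51% to 8.39% in the other femoral libraries) and a TMM factor of 0.897. With immunoglobulin, mitochondrial and ribosomal RNA genes taken out together, 1377 genes were called. Of the 1585 calls made with them, 1448 were still among the genes tested. The libraries held more than B cells. B lineage genes such as Cd79a (49.8 and 98.9 CPM in deltaEmu, 175 and 123 CPM in RAG2_deficient) stood beside genes of neutrophils, whose 10 late markers summed to 15030 and 18190 CPM in deltaEmu and 5433 and 7300 CPM in RAG2_deficient. In such bulk RNA, fewer cells of a type and less RNA per cell cannot be told apart.

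Antibody genes are assembled from V, D and J segments during B cell development. The RAG1 and RAG2 proteins together cut beside the segments: a D segment joins a J segment at the heavy chain locus, then a V segment joins the DJ unit, and the light chain loci follow at a later stage. Unrearranged loci are transcribed too, and these germline transcripts run through D and J segments that recombination would later join or delete. A cell without RAG2 is held at the pro-B stage, in which surrogate light chain genes are active, and makes no antibody. Eµ is known for its part in heavy chain recombination and in germline transcription around the D and J segments.

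The 5 segments of the D and J cluster that carried nearly all germline D and J counts are shown because all of them were lower in deltaEmu, where the other IgH segments and constant genes that were called mostly rose. All 5 lie on the minus strand of chromosome 12 (GRCm38), and the sequences are from the GENCODE vM21 transcripts. Capitals in the J segments mark the TGGGGNNNNGG stretch, which encodes the conserved tryptophan and the glycines after it, and the D segment has no such stretch.
Ighd4-1 (chr12:113430528-113430538): ctaactgggac
Ighj1 (chr12:113429781-113429833): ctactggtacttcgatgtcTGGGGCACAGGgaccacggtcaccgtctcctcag
Ighj2 (chr12:113429468-113429567): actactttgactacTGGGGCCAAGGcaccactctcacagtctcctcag
Ighj3 (chr12:113429085-113429132): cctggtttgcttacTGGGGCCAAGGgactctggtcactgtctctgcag
Ighj4 (chr12:113428514-113428567): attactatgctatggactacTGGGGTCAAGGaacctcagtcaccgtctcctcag
The table's entry for Ighj2 spans 100 bases, of which the transcript covers 48.

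Over all genes, deltaEmu held far more antibody transcripts, more of the MHC class II genes that present antigen and more neutrophil transcripts, whereas RAG2_deficient held more pro-B cell, bone matrix and stromal transcripts. Of 16009 genes tested, 1585 (9.9%) were called at an adjusted p of 0.05, 713 (4.45%) higher and 872 (5.45%) lower in deltaEmu. Immunoglobulin genes made up 124 of the higher and 9 of the lower calls. A further measure, library values that do not overlap between the groups, held for 8424 genes (52.6%). The median log2 fold change over all tested genes was -0.01, and the smallest change called was 0.56 in size. The count of calls was 251 without deltaEmu replicate 5, 321 without deltaEmu replicate 7 and 5256 without RAG2_deficient replicate 1.

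**Figure D1:**
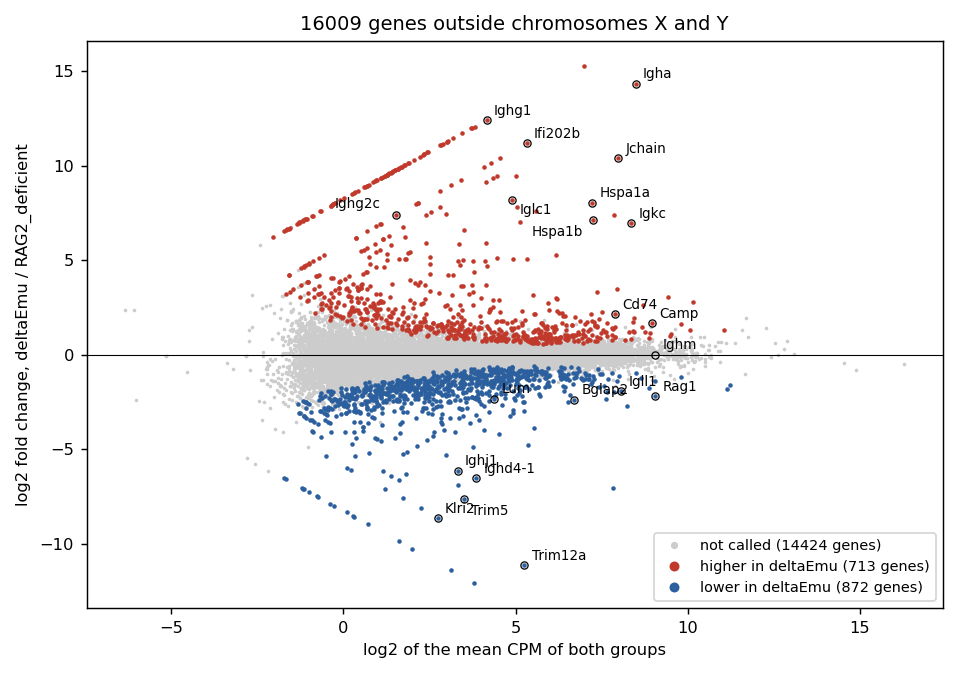
Each point is 1 of the 16009 tested genes, with the log2 of its mean CPM over both groups on the x axis and the log2 fold change of deltaEmu over RAG2_deficient on the y axis. Red marks the 713 genes called higher and blue the 872 called lower in deltaEmu; Igha, Ighg1 and Jchain stand near the top, Trim12a near the bottom, and Ighm lies on the zero line.

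The question at the IgH locus is how its transcripts differ between a genotype that lacks an enhancer and one that cannot recombine. Germline D and J transcripts were abundant in RAG2_deficient and nearly absent from deltaEmu, while V transcripts and most constant region transcripts were higher in deltaEmu. Ighm, the constant gene of IgM, was at like levels in both, within the spread of the libraries. Summed over all V, D, J and constant entries, IgH transcripts stood at 1576 and 1805 CPM in deltaEmu and 644 and 715 CPM in RAG2_deficient (log2 1.32 ± 0.25, adjusted p = 0.000834 over 9 sums). The 2KO libraries, at 25.1 and 19.99 CPM, lay far below both.

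The D sum was 0.0999 and 0.711 CPM in deltaEmu and 31.1 and 26.6 CPM in RAG2_deficient, 71.1-fold lower in deltaEmu (log2 -6.20 ± 0.55, adjusted p = 7.35e-06). Its size rests on few deltaEmu counts: it was -5.32 without deltaEmu replicate 5 and -8.08 without deltaEmu replicate 7, and called in both. The J sum was 1.85 and 2.73 CPM in deltaEmu and 47.2 and 82.4 CPM in RAG2_deficient, 28.3-fold lower in deltaEmu (log2 -4.83 ± 0.36, adjusted p = 2.78e-06). In neither sum did the libraries of the groups overlap. The 2KO libraries were at 0.0494 and 0 CPM for the D sum and at 0.148 and 0.0459 CPM for the J sum. Nearly the whole D signal came from Ighd4-1, the segment closest to the J cluster and, as printed above, only 11 bases long. It took 501 of 501 and 514 of 515 D counts in the RAG2_deficient libraries. Its own counts were 2 and 9 in deltaEmu and 501 and 514 in RAG2_deficient (log2 -6.55 ± 0.51, adjusted p = 0.000472), a log2 value of -5.73 without deltaEmu replicate 5 and -8.07 without deltaEmu replicate 7.

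All 4 J segments fell in deltaEmu. Ighj1, next to Ighd4-1, had 5 and 5 counts in deltaEmu and 287 and 420 in RAG2_deficient, which correspond to 0.2498 and 0.296 against 17.8 and 21.7 CPM (log2 -6.15 ± 0.35, adjusted p = 0.000289). Ighj2 had 6 and 8 counts in deltaEmu and 177 and 385 in RAG2_deficient (log2 -5.32, adjusted p = 0.00165). For Ighj3 the counts were 10 and 11 in deltaEmu and 125 and 297 in RAG2_deficient (log2 -4.32, adjusted p = 0.00246). The size of the change fell along the cluster in the order Ighj1, Ighj2, Ighj3 and Ighj4, whose log2 value was -4.11 (16 and 22 counts in deltaEmu, 170 and 495 in RAG2_deficient, adjusted p = 0.00335), but differences between segments were not tested and Ighj4 was at -3.34 without RAG2_deficient replicate 2. Without deltaEmu replicate 5, Ighj3 and Ighj4 were no longer called (adjusted p 0.0521 and 0.059), and the other 3 segments still were. Reads that cross a rearranged junction match no contiguous stretch of the reference, and how such reads were counted is not given in the sources used here.

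Another unrearranged part of the locus moved the same way. Adam6b, a gene that lies between the V and D segments and that V to D joining deletes, stood at 0.1998 and 0.0593 CPM in deltaEmu and 1.18 and 3.56 CPM in RAG2_deficient (log2 -4.09 ± 0.83, adjusted p = 0.0271). This call was lost without deltaEmu replicate 5 (log2 -5.17, adjusted p = 0.174), without deltaEmu replicate 7 (0.188) and without RAG2_deficient replicate 2 (log2 -3.07, adjusted p = 0.0766). Gm30948, a long noncoding RNA gene among the V segments (chr12:115262684-115287908), was at 1.998 and 3.73 CPM in deltaEmu and 57.5 and 101 CPM in RAG2_deficient (log2 -4.80 ± 0.38, adjusted p = 0.000522), and was called without each of the 6 libraries in turn. It was chosen after its values were seen. Tmem121, beyond the other end of the locus, showed no such difference, at 0.749 and 1.07 CPM in deltaEmu and 0.746 and 1.08 CPM in RAG2_deficient (adjusted p = 0.977).

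Ighm stood at 479 and 576 CPM in deltaEmu and 511 and 556 CPM in RAG2_deficient, and the libraries overlapped (log2 -0.02 ± 0.23, adjusted p = 0.975). Its 2KO level was 4.49 and 6.099 CPM. Ighd, the constant gene of IgD, was at 3.35 and 6.76 CPM in deltaEmu and 9.38 and 18.6 CPM in RAG2_deficient, which missed the threshold (log2 -1.48 ± 0.45, adjusted p = 0.0949) but passed it without RAG2_deficient replicate 1 (adjusted p = 0.0127), by DESeq2 (0.0232) and with no filter on low counts (3.65e-05).

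The other 6 constant genes, which serve class-switched antibodies, rose in deltaEmu. Igha, the constant gene of IgA, the antibody of mucosal surfaces, had 14412 and 12054 counts in deltaEmu and 0 and 1 in RAG2_deficient. Its level was 717 ± 3.96 CPM (SD, n = 2) in deltaEmu, a ratio of counts of 25453, 95% counting interval 4568 to 1005370 (adjusted p = 4.03e-05). In deltaEmu it was therefore the most abundant IgH constant transcript in CPM, above Ighm. Per kilobase of the gene entry, Igha made up 48.5% and 44.1% of IgH constant transcripts in the deltaEmu libraries and Ighm 45.6% and 50.3%, so that neither led in both. In RAG2_deficient Ighm made up 97.8% and 96.5% and Ighd 1.78% and 3.20%.

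The gamma genes, of IgG, were lower than Igha by an order of magnitude or more in deltaEmu. Ighg1 stood at 33.02 and 38.4 CPM with no count in either RAG2_deficient library, at least 209-fold higher (adjusted p = 0.000286, bound at 3 counts per library). Ighg2b, the only gamma gene with more than 1 count in a RAG2_deficient library, was at 22.1 and 23.5 CPM in deltaEmu and 2.67 and 2.32 CPM in RAG2_deficient, 9.13-fold higher (adjusted p = 0.000349). Ighg2c was at 6.59 and 4.80 CPM (ratio of counts 205, 95% counting interval 36.4 to 8128, adjusted p = 0.00207). For Ighg3 the deltaEmu values were 4.796 and 3.496 CPM (ratio 149, 95% counting interval 26.4 to 5925, adjusted p = 0.00364). Ighe, of IgE, was lowest, at 0.999 and 0.652 CPM against no count (at least 4.84-fold, adjusted p = 0.0253). Its call was lost without deltaEmu replicate 7 (adjusted p = 0.12) and without RAG2_deficient replicate 2 (0.0607), and it was not tested without deltaEmu replicate 5. Intervals and bounds cover counting error only. Fitted log2 values of genes with at most 1 count in each library of a group depend on the prior count and are not given in the text, and those of other low genes move with single libraries.

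**Figure D2:**
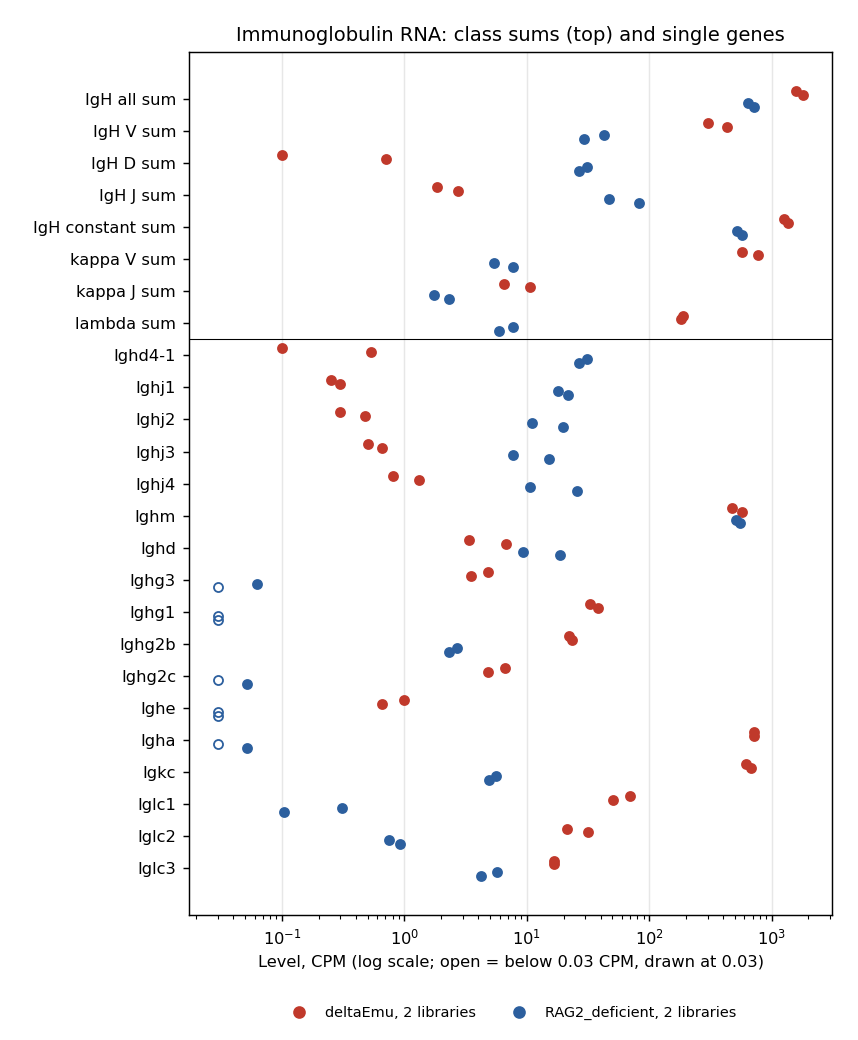
Levels in CPM (log axis) of 8 immunoglobulin class sums and 17 single genes in the 2 deltaEmu libraries (red) and the 2 RAG2_deficient libraries (blue), with open circles below 0.03 CPM. Igha, the gamma genes and the light chain genes lie to the right in deltaEmu, Ighd4-1 and the 4 J segments lie to the right in RAG2_deficient, and the Ighm points overlap.

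V transcripts differed in amount and in the segments they came from. A V count does not tell a joined segment from an unrearranged one, so shares of V counts are not shares of joined segments. The V sum was 305 and 433 CPM in deltaEmu and 42.5 and 29.5 CPM in RAG2_deficient, 10.3-fold higher (log2 3.36 ± 0.30, adjusted p = 7.35e-06). Of 183 V entries, 117 had a count in deltaEmu and 86 in RAG2_deficient. The filter on low counts left 59, of which 44 were called higher, 4 lower and 11 were not called. A segment seen mainly in deltaEmu passes that filter through deltaEmu, so the 44 are a description and no support. Without deltaEmu replicate 5, 25 were called higher and 0 lower, and without deltaEmu replicate 7, 22 and 0.

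The V segments with most counts in deltaEmu were Ighv7-3 in replicate 5 and Ighv9-3 in replicate 7. Ighv7-3 stood at 44.1 and 43.3 CPM in deltaEmu and 0.124 and 0 CPM in RAG2_deficient, and Ighv9-3 at 37.6 and 56.7 CPM against 0.0621 and 0 CPM. They took 14.4% and 13.1% of V counts in those libraries, so no single segment dominated. In RAG2_deficient one did lead: Ighv14-2 took 31.6% and 26.8% of V counts, at 13.4 and 7.89 CPM against 4.55 and 9.48 CPM in deltaEmu, a difference that did not pass the test (adjusted p = 0.394). All of these were chosen for their level, after their values were seen.

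Along the locus, most V counts in deltaEmu came from the V entries nearer to Ighm, though segments called higher lay from 165.5 to 2577.3 kb upstream (median 882.5 kb). The 92 V entries nearest to Ighm (up to 1234.6 kb upstream) took 83.0% and 84.0% of V counts in deltaEmu, but 41.5% and 35.9% in RAG2_deficient. In 2KO they took 9.11% and 8.78%, from 37 and 26 counts. Only 59 of the 183 V entries were tested, and a segment seen mainly in deltaEmu passes the filter through deltaEmu. The calls by position are therefore a description and no support. Of the 92 nearest entries 30 were called higher and 0 lower. Of the 91 entries further away, 14 were higher and 4 lower. The lower ones were Ighv1-23, Ighv1-41, Ighv1-72 and Ighv1-75, between 1341.7 and 2411.2 kb upstream of Ighm and named after their values were seen. Ighv1-75 stood at 0.04995 and 0.296 CPM in deltaEmu and 3.11 and 2.53 CPM in RAG2_deficient (log2 -4.04, adjusted p = 0.0121), with log2 values of -3.21 and -5.64 without deltaEmu replicates 5 and 7. None of these 4 was called without deltaEmu replicate 5 (adjusted p 0.13 to 0.374) or without deltaEmu replicate 7 (0.051 to 0.198), and Ighv1-23 was called in none of the 6 leave-one-out fits. Some V segments are near-identical copies of each other. How reads with several matches were counted is not stated in the sources used here, so single segments are uncertain.

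**Figure D3:**
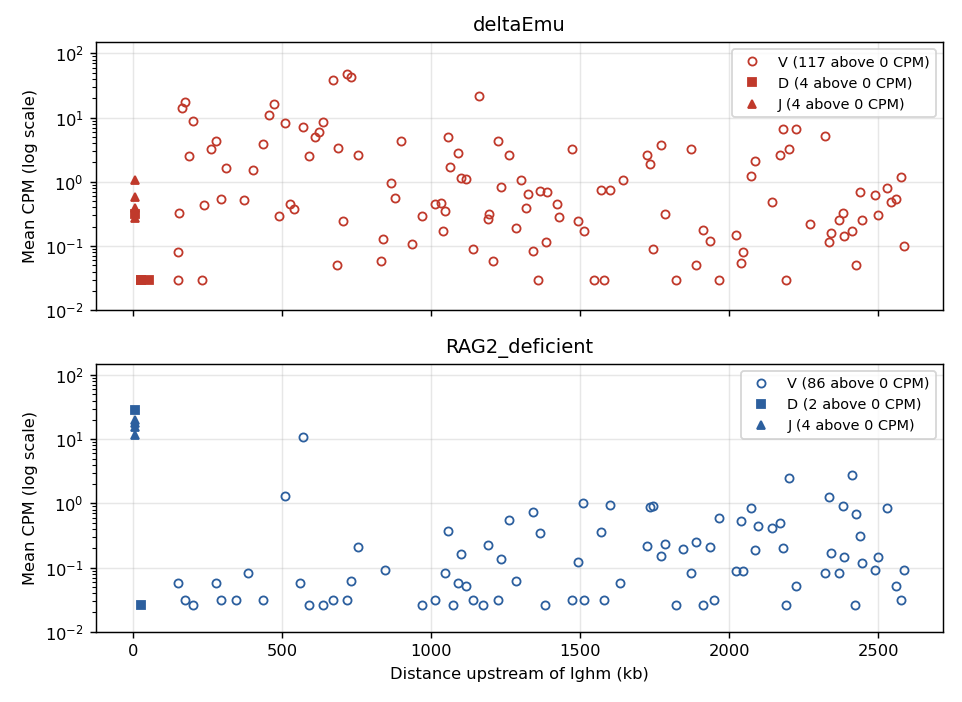
Mean CPM (log axis) of each V, D and J entry against its distance upstream of Ighm in kb, for deltaEmu (above) and RAG2_deficient (below). Open circles are V segments (117 and 86 above 0 CPM), squares D and triangles J segments; the D and J points stand high only in RAG2_deficient, and the highest V points of deltaEmu lie within 1234.6 kb.

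Light chain transcripts were low in RAG2_deficient and abundant in deltaEmu. The kappa constant gene Igkc was at 621 and 683 CPM in deltaEmu and 5.59 and 4.90 CPM in RAG2_deficient, 124-fold higher (log2 6.96 ± 0.29, adjusted p = 4.49e-05). Kappa V segments summed to 571 and 769.5 CPM against 5.34 and 7.69 CPM (log2 6.68 ± 0.37, adjusted p = 5.69e-07). The difference was about the same in size for the constant gene and for the V segments, and no library of one group reached the other.

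Kappa V counts were spread over 109 of 158 entries in deltaEmu and 31 in RAG2_deficient. Of 65 that passed the filter on low counts all 65 were called higher, a number that again rests on passing through deltaEmu. It was 55 of 71 tested without deltaEmu replicate 5 and 48 of 70 without deltaEmu replicate 7. The leading one, Igkv10-96, held 11.3% and 8.86% of kappa V counts in deltaEmu, at 64.2 and 68.2 CPM against 0.497 and 0.103 CPM. Kappa J segments moved less, from 1.74 and 2.32 CPM in RAG2_deficient to 6.49 and 10.7 CPM in deltaEmu (log2 2.07 ± 0.36, adjusted p = 0.00057), while Igkj3 and Igkj4 were called among 4 tested, neither of them without deltaEmu replicate 5 or replicate 7.

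Lambda transcripts summed to 190.1 and 183 CPM in deltaEmu and 7.64 and 5.88 CPM in RAG2_deficient (log2 4.79 ± 0.30, adjusted p = 8.99e-07). Iglc1, a lambda constant gene, stood at 69.2 and 50.3 CPM in deltaEmu and 0.311 and 0.103 CPM in RAG2_deficient (adjusted p = 0.000349). Iglc2 was at 21.4 and 31.8 CPM against 0.746 and 0.929 CPM (adjusted p = 0.000688). Iglc3 changed least of the 4 light chain constant genes, from 5.72 and 4.23 CPM to 16.7 and 16.6 CPM (adjusted p = 0.0118), and was not called without deltaEmu replicate 5 (0.116) or replicate 7 (0.0928).

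Several genes of the pro-B stage, at which B lineage cells recombine the heavy chain locus, were lower in deltaEmu. Of 10 pro-B genes tested, 5 fell and 0 rose, with a median log2 value of -1.44, and the list summed to 1064 and 1382 CPM in deltaEmu and 2893 and 2992 CPM in RAG2_deficient. Rag1, the partner of RAG2, stood at 156 and 224 CPM in deltaEmu and 771 and 979 CPM in RAG2_deficient (190.2 ± 47.9 against 875 ± 147, SD, n = 2; log2 -2.20 ± 0.35, adjusted p = 0.00904). Every RAG2_deficient library was more than 3-fold above every deltaEmu library. In 2KO, Rag1 stood at 268 and 145 CPM, and the pro-B list summed to 1300 and 887 CPM. Enpep, an aminopeptidase also called BP-1 that marks late pro-B and pre-B cells, was at 6.79 and 7.47 CPM against 42.4 and 64.7 CPM (log2 -2.91 ± 0.37, adjusted p = 0.00383). Dntt, the enzyme TdT that adds untemplated bases at junctions, was at 208 and 271 CPM against 539 and 594 CPM (log2 -1.24 ± 0.26, adjusted p = 0.0258).

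The surrogate light chain, made of the Igll1 and Vpreb products, stands in for a light chain in the pre-B receptor. Igll1 stood at 84.4 and 138 CPM in deltaEmu and 410.1 and 437 CPM in RAG2_deficient (log2 -1.93 ± 0.31, adjusted p = 0.0094). Vpreb2 fell as well (13.5 and 25.01 against 76.98 and 43.1 CPM, adjusted p = 0.0465). Vpreb1 was at 70.2 and 157 CPM in deltaEmu and 442 and 269.6 CPM in RAG2_deficient and missed the threshold (adjusted p = 0.0639), but passed it by DESeq2 (0.00203), with no filter on low counts (1.12e-09), without 2KO replicate 3 (0.0479) and without RAG2_deficient replicate 2 (0.0372). Of the 5 pro-B genes that fell, none was called without deltaEmu replicate 5 (adjusted p 0.0676 to 0.326). Without deltaEmu replicate 7 only Igll1 was (the others 0.0522 to 0.119), and Vpreb2 was also lost without RAG2_deficient replicate 1 (0.0586). Kit, the stem cell factor receptor, was not called (78.6 and 66.5 against 63.0 and 93.7 CPM, adjusted p = 0.789). The interleukin 7 receptor gene Il7r was not called either (47.7 and 60.6 against 69.3 and 118 CPM, adjusted p = 0.111), except with no filter on low counts (0.00434) and without RAG2_deficient replicate 1 (0.0053).

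Rag2 itself was at 13.8 and 21.2 CPM in deltaEmu and 22.8 and 25.4 CPM in RAG2_deficient (adjusted p = 0.335). The part of the gene that the allele lacks is not given in the sources used here, so this level checks nothing. In the list of recombination and end joining genes, 4 of 12 fell and 0 rose (median log2 -0.49): Rag1, Dntt, Lig4 and Xrcc6. Lig4, the ligase that seals the cut ends, was at 13.8 and 18.8 CPM in deltaEmu and 32.3 and 38.2 CPM in RAG2_deficient (adjusted p = 0.0266), and Xrcc6, which encodes the Ku subunit that holds those ends, at 110.3 and 122 against 220 and 245 CPM (adjusted p = 0.0199). Each of the 4 was lost without deltaEmu replicate 5 (adjusted p 0.131 to 0.268) and without deltaEmu replicate 7 (0.0653 to 0.138).

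Among 12 transcription factors of early B development, 4 fell and 0 rose (median log2 -0.61). Ebf1, the factor that specifies the B lineage, was at 78.8 and 108 CPM in deltaEmu and 239 and 496 CPM in RAG2_deficient (log2 -1.97 ± 0.36, adjusted p = 0.0154, and log2 -1.35 without RAG2_deficient replicate 2). Foxo1, which acts with it at the recombinase genes, was at 27.6 and 31.5 CPM against 61.5 and 124 CPM (adjusted p = 0.0166). Pax5, which keeps cells in the B lineage, was at 58.4 and 84.4 CPM against 135 and 209.7 CPM (adjusted p = 0.04), and the fourth was Lef1 (39.96 and 62.2 against 106 and 196 CPM, adjusted p = 0.0222). In all 4 the groups did not overlap, which also held for 10 of the 12 in the list and for 52.6% of all tested genes. The RAG2_deficient libraries of these 4 genes also differed from each other, replicate 2 being the higher. All 4 were lost without deltaEmu replicate 5 (adjusted p 0.18 to 0.315) and without deltaEmu replicate 7 (0.0789 to 0.122), and Pax5 without RAG2_deficient replicate 2 (0.0846). Cd79a, a chain of the B cell receptor that all B lineage stages carry, was not called (49.8 and 98.9 against 175 and 123 CPM, adjusted p = 0.164), except with no filter on low counts (0.000175).

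Some surface genes of later B cells were higher in deltaEmu. Of 19 mature B cell surface genes 6 rose, 1 fell and 12 were not called (median log2 0.72). Ms4a1, the CD20 antigen, stood at 16.9 and 23.8 CPM in deltaEmu and 1.12 and 0.413 CPM in RAG2_deficient (log2 4.76 ± 0.43, adjusted p = 0.000961). Cr2, the complement receptor CD21, was at 4.096 and 4.56 CPM against 0.186 and 0.155 CPM (log2 4.62 ± 0.44, adjusted p = 0.00126). Fcmr, the receptor for IgM, was at 6.24 and 8.77 CPM against 0.0621 and 0.258 CPM (log2 5.43 ± 0.53, adjusted p = 0.00126). These 3 were at low counts in RAG2_deficient and remained called without each of the 6 libraries in turn. Their sizes moved with single libraries: Ms4a1 was at log2 5.61 without RAG2_deficient replicate 1, and Fcmr at 4.84 without that library and 6.77 without RAG2_deficient replicate 2.

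The other mature genes that rose were Fcer2a (CD23, the low affinity IgE receptor, 1.499 and 4.21 against 0.186 and 0.103 CPM, adjusted p = 0.0151), Cd22, an inhibitory receptor (14.8 and 13.5 against 7.33 and 5.78 CPM, adjusted p = 0.0236), and Fcrla (22.9 and 24.8 against 12.6 and 9.49 CPM, adjusted p = 0.0174). Cxcr5, the receptor that guides B cells to follicles, went against the list, at 5.89 and 8.95 CPM in deltaEmu and 22.7 and 20.6 CPM in RAG2_deficient (log2 -1.55 ± 0.25, adjusted p = 0.00904). Without deltaEmu replicate 5, Cd22 and Fcrla (0.134 to 0.218) and Cxcr5 (0.11) were lost. Without deltaEmu replicate 7, Cd22, Fcer2a and Fcrla were (0.113 to 0.14), and without RAG2_deficient replicate 2, Fcer2a (0.0504). Of 9 pre-B and immature B genes 3 rose and 0 fell (median log2 0.95): Ms4a1, Cd2 (9.79 and 11.6 against 3.54 and 4.18 CPM, adjusted p = 0.026) and the kinase gene Blk (16.1 and 27.3 against 8.26 and 8.51 CPM, adjusted p = 0.0398). Cd2 and Blk were lost without deltaEmu replicate 5 (0.081 to 0.151) and replicate 7 (0.182 to 0.262), and Blk without RAG2_deficient replicate 2 (0.0741). Among 15 B cell receptor signalling genes 2 rose, Blk and Cd22, and the adaptor gene Blnk fell (77.7 and 104 against 167 and 218 CPM, adjusted p = 0.0338), lost without deltaEmu replicate 5 (0.3), replicate 7 (0.119) and RAG2_deficient replicate 2 (0.0597).

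MHC class II molecules present peptides to helper T cells and are made by B cells, dendritic cells and macrophages. Of 10 class II pathway genes 7 rose and 0 fell (median log2 1.77), and the list summed to 1321 and 1202 CPM in deltaEmu and 482 and 365 CPM in RAG2_deficient. Cd74, the invariant chain, stood at 431 and 343 CPM in deltaEmu and 93.2 and 83.3 CPM in RAG2_deficient (log2 2.13 ± 0.22, adjusted p = 0.0016). Ciita, the transactivator that switches class II genes on, was at 38.1 and 36.8 CPM against 11.3 and 10.2 CPM (log2 1.80 ± 0.17, adjusted p = 0.00101). H2-Aa was at 280 and 263 CPM against 80.96 and 66.9 CPM (adjusted p = 0.00179). In these 3 genes the lowest deltaEmu library was more than 3 times the highest RAG2_deficient one. In 2KO the list summed to 779.6 and 640.2 CPM, between the groups. H2-Eb1, H2-Ab1, H2-DMb1 and H2-DMb2 rose too, while H2-Oa and H2-Ob were not called. H2-Ab1, H2-DMb1 and H2-DMb2 were lost without deltaEmu replicate 5 (adjusted p 0.0715 to 0.184) and without deltaEmu replicate 7 (0.0598 to 0.168). Monocyte markers moved in both directions, as given below, and their part in the class II difference was not tested.

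Plasma cells secrete antibody. Jchain, the chain that joins IgA and IgM units into multimers, was at 442 and 565 CPM in deltaEmu and 0.621 and 0.155 CPM in RAG2_deficient (log2 10.38 ± 0.45, adjusted p = 4.49e-05). In the list of 16 plasma cell regulators and surface genes 4 rose and 1 fell (median log2 0.51). Tnfrsf17, the survival receptor BCMA, stood at 0.599 and 1.01 CPM in deltaEmu and 0.0621 and 0.0516 CPM in RAG2_deficient (adjusted p = 0.0317), but was not called by DESeq2. Derl3, of the pathway that clears misfolded secretory proteins, was at 2.65 and 3.79 CPM against 0.746 and 0.309 CPM (adjusted p = 0.0161), and Creld2, an endoplasmic reticulum chaperone, at 32.4 and 29.9 CPM against 18.5 and 15.7 CPM (adjusted p = 0.0193).

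The main regulators of the plasma cell state were not called with all libraries. Prdm1, the factor Blimp1, was at 3.65 and 3.14 CPM in deltaEmu and 2.42 and 3.92 CPM in RAG2_deficient (adjusted p = 0.894), and Xbp1, the factor of the secretory programme, at 142 and 124 CPM against 95.9 and 88.4 CPM (adjusted p = 0.0845, but 0.0469 by DESeq2 and 0.0225 without RAG2_deficient replicate 1). Sdc1, the surface marker CD138 (adjusted p = 0.301, but 0.0166 without RAG2_deficient replicate 1), and Irf4 (0.446) were not called either. Slamf7, a surface receptor of plasma cells and other immune cells, fell (27.8 and 34.02 against 57.2 and 71.7 CPM, adjusted p = 0.0209). Jchain was called without each of the 6 libraries in turn, at log2 11.62 without RAG2_deficient replicate 1 and 9.64 without RAG2_deficient replicate 2. The other 3 that rose were lost without deltaEmu replicate 5 (adjusted p 0.0866 to 0.193) and replicate 7 (0.114 to 0.211), 1 of them without 2KO replicate 1 (0.0509) and 1 without RAG2_deficient replicate 2 (0.117), and Slamf7 without deltaEmu replicate 5 (0.222) or replicate 7 (0.105).

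Folding and secretion genes of the endoplasmic reticulum had positive fold changes in 17 of 17 tested members (median log2 0.64), of which 5 passed the test. Dnajc3, a co-chaperone, stood at 339 and 311 CPM in deltaEmu and 122 and 131 CPM in RAG2_deficient (log2 1.36 ± 0.18, adjusted p = 0.00415). Hspa5, the chaperone BiP that binds unpaired heavy chains, was at 973 and 925 CPM against 521 and 445 CPM (log2 0.97 ± 0.23, adjusted p = 0.0387). Dnajb9 (adjusted p = 0.0132), Pdia4 (0.0402) and Hyou1 (0.0402) were the others. Hspa5, Pdia4 and Hyou1 were not called with only the 4 compared libraries in the fit. All 5 calls were lost without deltaEmu replicate 5 (0.0603 to 0.306), 4 without deltaEmu replicate 7 (0.104 to 0.183), 3 without 2KO replicate 1 (0.0946 to 0.108), 3 without 2KO replicate 3 (0.0981 to 0.112), and Pdia4 without RAG2_deficient replicate 2 (0.0551). Ccr10, a homing receptor of IgA-secreting cells, was at 0.649 and 1.01 CPM in deltaEmu and 0 and 0.0516 CPM in RAG2_deficient (adjusted p = 0.0244), and was lost without deltaEmu replicate 5 (0.13), replicate 7 (0.161) and RAG2_deficient replicate 2 (0.0517). Of 11 tested genes of the class switch machinery 0 were called by edgeR or DESeq2 and 0 had an unadjusted p under 0.05 (smallest adjusted p = 0.33, for the nuclease gene Exo1), while 3 were called without RAG2_deficient replicate 1.

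Genes of dividing cells showed no call. Of 19 DNA replication genes 0 were called by edgeR, 1 had an unadjusted p under 0.05 and 0 were called by DESeq2 (median log2 0.15, smallest adjusted p = 0.194, for Tyms, which makes thymidylate). The list summed to 3220 and 2865 CPM in deltaEmu and 3023 and 2622 CPM in RAG2_deficient, which overlap. Of 18 mitosis genes 0 were called by edgeR or DESeq2 and 0 had an unadjusted p under 0.05 (median log2 0.07, smallest adjusted p = 0.204, for Aurkb). Without RAG2_deficient replicate 1, 5 genes of either list were called. Of 10 stem and progenitor genes 0 were called by either tool, with 2 at an unadjusted p under 0.05, or 3 called without RAG2_deficient replicate 1.

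**Figure D4:**
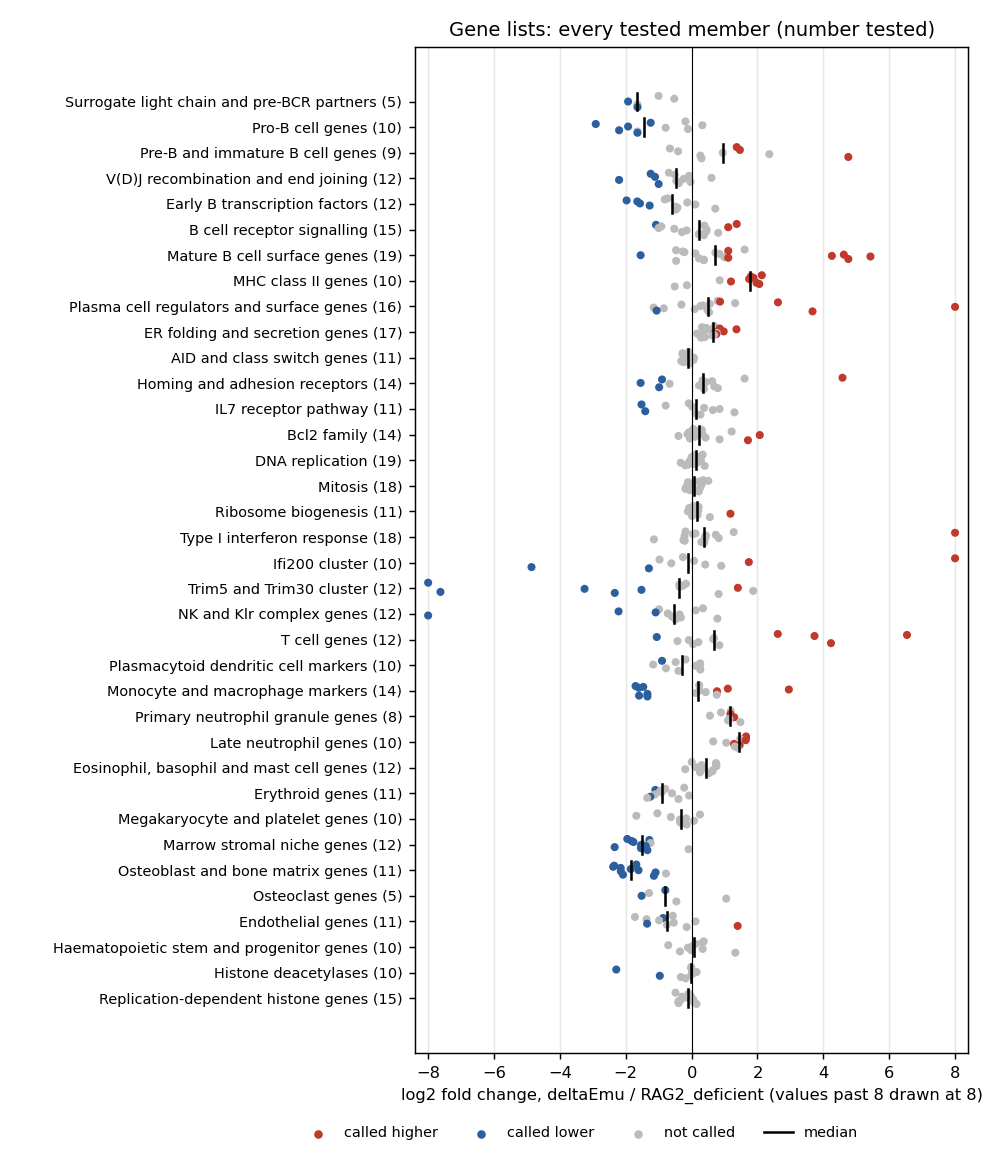
Log2 fold change of deltaEmu over RAG2_deficient (x axis, values beyond 8 drawn at 8) for every tested member of 36 gene lists, with the number tested beside each name. Red and blue points were called higher and lower, grey points were not called and black bars are medians; osteoblast, stromal and pro-B genes lie to the left, and class II and neutrophil genes to the right.

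Most bone and stroma genes were lower in deltaEmu than in RAG2_deficient. Both lists also summed lower in 2KO than in RAG2_deficient, to 1727 and 1222 CPM for bone and 294.5 and 288.5 CPM for stroma. Of 11 osteoblast and bone matrix genes 10 fell in deltaEmu and 0 rose (median log2 -1.85), and the list summed to 2334 and 2494 CPM in deltaEmu and 8509 and 7401 CPM in RAG2_deficient. Col1a1, a chain of type I collagen, stood at 946 and 1002 CPM in deltaEmu and 3505 and 3492 CPM in RAG2_deficient (log2 -1.84 ± 0.30, adjusted p = 0.00981). Bglap, osteocalcin, was at 48.6 and 81.8 CPM against 449 and 215 CPM (adjusted p = 0.0208), and Dmp1, of osteocytes, at 2.897 and 3.08 CPM against 11.9 and 14.6 CPM (adjusted p = 0.00301). Of these 10 calls none held without deltaEmu replicate 5 (adjusted p 0.0594 to 0.219), and without deltaEmu replicate 7 only Dmp1 did (the others 0.0559 to 0.189).

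Among 12 genes of the marrow stroma that feeds developing B cells, 9 fell and 0 rose (median log2 -1.51), with sums of 212 and 235 CPM in deltaEmu and 663 and 507 CPM in RAG2_deficient. Dcn, decorin, stood at 18.7 and 18.6 CPM in deltaEmu and 66.9 and 65.3 CPM in RAG2_deficient (log2 -1.82 ± 0.16, adjusted p = 0.000928). Lum, lumican, was at 6.44 and 7.35 CPM against 32.4 and 37.2 CPM (log2 -2.34 ± 0.23, adjusted p = 0.00126). Cxcl12, the chemokine that holds B precursors in the marrow, was at 69.2 and 90.1 CPM against 239 and 148 CPM (adjusted p = 0.0211). Dcn and Lum were called without each of the 6 libraries in turn, while 7 of the 9 were lost without deltaEmu replicate 5 (0.0768 to 0.23) and 6 without deltaEmu replicate 7 (0.0699 to 0.103). These are genes of adherent marrow cells rather than of B cells, and their part in the differences of B lineage genes was not tested.

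Neutrophil genes went the other way. All 10 late neutrophil genes had positive fold changes, and 5 rose (median log2 1.43). Their 2KO sums were 9061 and 7480 CPM, between the groups. Camp, the antimicrobial cathelicidin, stood at 708 and 811 CPM in deltaEmu and 211 and 272 CPM in RAG2_deficient (log2 1.65 ± 0.23, adjusted p = 0.00541). S100a9, of calprotectin and the most abundant of the list, was at 6247 and 8010 CPM against 2372 and 3033 CPM and missed the threshold (adjusted p = 0.0544), but passed it by DESeq2 (1.54e-06), with no filter on low counts (0.000331) and without either RAG2_deficient library (0.0289 and 0.0286). Of 8 primary granule genes, which mark younger neutrophils, 2 rose (median log2 1.16): Mpo, myeloperoxidase, at 3125 and 2953 CPM in deltaEmu and 1457 and 1021 CPM in RAG2_deficient (adjusted p = 0.0393), and Elane, neutrophil elastase, at 416 and 456 against 229 and 156 CPM (adjusted p = 0.0229). Mpo, Elane and the late genes Cxcr2, Ltf and Ngp were not called with only the 4 compared libraries in the fit. All 7 calls were lost without deltaEmu replicate 5 (0.0521 to 0.284) and replicate 7 (0.0598 to 0.171). Without 2KO replicate 1, 3 late genes (0.0516 to 0.0801) and Mpo (0.104) were lost, and without 2KO replicate 3, 2 late genes (0.0677 to 0.0769) and Mpo (0.104).

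Monocyte and macrophage genes split. Of 14 tested 3 rose and 6 fell. Cd14, the co-receptor for bacterial lipopolysaccharide, stood at 146 and 116 CPM in deltaEmu and 25.1 and 8.98 CPM in RAG2_deficient (log2 2.95 ± 0.47, adjusted p = 0.00884, and log2 3.88 without RAG2_deficient replicate 1), and Ccr2 (1012 and 985 against 562 and 369 CPM) and Csf1r rose with it. Mrc1, the mannose receptor of resident macrophages, was at 31.9 and 29.4 CPM against 96.3 and 88.9 CPM (log2 -1.59, adjusted p = 0.00229). The 3 complement genes C1qa, C1qb and C1qc, made by tissue macrophages, also fell, and so did Vcam1 and Hmox1. Ccr2 and Csf1r were not called with only the 4 compared libraries in the fit. The 3 higher calls were lost without deltaEmu replicate 5 (0.079 to 0.358) and replicate 7 (0.0518 to 0.2), Ccr2 and Csf1r without 2KO replicate 1 (0.103 to 0.116) or replicate 3 (0.104 to 0.12), and 1 without RAG2_deficient replicate 2 (0.0678). Of the 6 lower calls only Mrc1 held without deltaEmu replicate 5 (the others 0.0768 to 0.315) or replicate 7 (0.0824 to 0.194).

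Erythroid genes had negative fold changes in all 11 tested members (median log2 -0.91), but the list summed to 2945 and 3099 CPM in deltaEmu and to 6482 and 3781 CPM in the RAG2_deficient libraries, which differed widely from each other. Rhag, a membrane protein of red cells, fell (13.8 and 13.99 against 28.95 and 37.2 CPM, adjusted p = 0.0493), and was lost without deltaEmu replicate 5 (0.294), replicate 7 (0.237) or RAG2_deficient replicate 2 (0.115).

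Mature T cells also need the RAG recombinase. Of 12 T cell genes 4 rose in deltaEmu and 1 fell, all at low levels. Trac, the constant gene of the T cell receptor alpha chain, was at 1.45 and 0.889 CPM in deltaEmu and 0.0621 and 0.0516 CPM in RAG2_deficient (adjusted p = 0.011). Cd3e, a signalling chain of that receptor, was at 0.4496 and 0.7704 CPM with no count in RAG2_deficient (at least 3.58-fold, adjusted p = 0.0238), and Cd3g at 3.397 and 2.01 CPM against 0.249 and 0.155 CPM (adjusted p = 0.00622). All 4 higher calls, Cd3d among them, were lost without deltaEmu replicate 5 (0.0757 to 0.181), 3 without deltaEmu replicate 7 (0.053 to 0.194), 1 without RAG2_deficient replicate 1 (0.0556) and 2 without RAG2_deficient replicate 2 (0.064 to 0.0717). Cd4, which dendritic and other cells also express, went the other way (7.04 and 6.46 against 14.2 and 13.98 CPM, adjusted p = 0.0183) and was lost without deltaEmu replicate 5 (0.167) or replicate 7 (0.168). Of 12 natural killer genes 3 fell, with Klrb1c at 5.395 and 4.03 CPM in deltaEmu and 21.1 and 22.9 CPM in RAG2_deficient (log2 -2.22 ± 0.23, adjusted p = 0.00165). Klrd1, lost without deltaEmu replicate 5 (0.185) or replicate 7 (0.23), and Klri2, below, were the others.

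Outside the immunoglobulin genes, the largest differences were in single genes that 1 group nearly lacked. Ifi202b, an interferon-inducible DNA sensor of the Ifi200 family, had 1823 and 1170 counts in deltaEmu and 0 and 1 in RAG2_deficient, that is 91.1 and 69.3 CPM against 0 and 0.0516 CPM (ratio of counts 2878, 95% counting interval 516 to 113729, adjusted p = 0.000119). Ifi44l, another interferon-induced gene, was at 53.2 and 27.4 CPM in deltaEmu and 0.0621 and 0.0516 CPM in RAG2_deficient (adjusted p = 0.00516). Gbp2b, a guanylate binding protein induced by interferon, was at 20.5 and 10.96 CPM against 0.186 and 0 CPM (adjusted p = 0.00649, and 0.0578 without deltaEmu replicate 5). Of 18 type I interferon response genes Ifi44l alone rose and 0 fell (median log2 0.37).

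The heat shock genes Hspa1a and Hspa1b, which encode the inducible HSP70 chaperone and are near-identical copies, stood apart as well. Hspa1a was at 297 and 298 CPM in deltaEmu and 1.802 and 0.516 CPM in RAG2_deficient (log2 8.04 ± 0.67, adjusted p = 0.000655, and log2 9.16 and 7.36 without RAG2_deficient replicates 1 and 2), with 2KO at 10.3 and 3.49 CPM. Hspa1b was at 292 and 318 CPM against 2.73 and 1.702 CPM (log2 7.11 ± 0.52, adjusted p = 0.000372). Eno1b, a processed copy of the enolase gene whose reads may be shared with the parent gene, was at 41.8 and 28.03 CPM against 0.808 and 0.361 CPM (adjusted p = 0.000217). Adgrg5, an adhesion receptor, stood at 60.5 and 58.7 CPM in deltaEmu and 1.37 and 2.17 CPM in RAG2_deficient (adjusted p = 0.00507), and Il9r, the interleukin 9 receptor, at 6.69 and 6.93 CPM against 0.249 and 0.155 CPM (adjusted p = 0.00177). With these came the antibody genes Igha, Ighg1, Ighg2c, Igkc, Iglc1 and Jchain, and Fcmr, to complete the 15 largest increases.

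**Figure D5:**
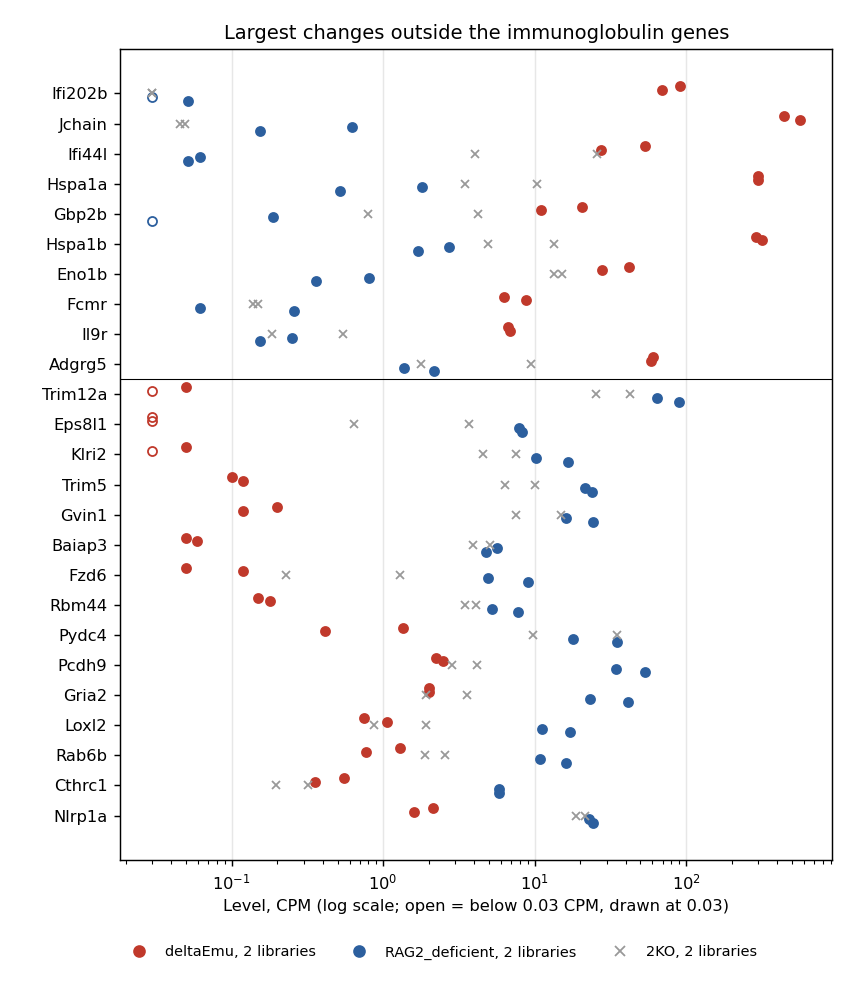
Levels in CPM (log axis) of the largest changes outside the immunoglobulin genes, increases above the line and decreases below it, in the 2 deltaEmu libraries (red), the 2 RAG2_deficient libraries (blue) and, for reference, the 2 libraries of 2KO (grey crosses); open circles lie below 0.03 CPM. For Ifi202b and Jchain the 2KO points lie near RAG2_deficient, and Trim12a, Trim5 and Nlrp1a are low in deltaEmu alone of the 3 groups.

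Of the largest decreases, several belong to antiviral and innate immune families. Trim12a, of the Trim5 family of antiviral factors, had 1 and 0 counts in deltaEmu and 1028 and 1732 in RAG2_deficient (63.9 and 89.3 CPM, ratio of deltaEmu to RAG2_deficient 0.000348, 95% counting interval 8.82e-06 to 0.00194, adjusted p = 0.000119). Trim5 was at 0.0999 and 0.119 CPM in deltaEmu and 21.5 and 23.9 CPM in RAG2_deficient (adjusted p = 0.000119). Their 2KO levels were 25.6 and 42.7 CPM and 6.42 and 10.1 CPM. Gvin1, an interferon-induced large GTPase, was at 0.1998 and 0.119 CPM against 16.03 and 24.2 CPM (adjusted p = 0.000564). Nlrp1a, an inflammasome sensor, was at 2.15 and 1.60 CPM against 22.9 and 24.1 CPM (log2 -3.64 ± 0.23, adjusted p = 0.000217). Klri2, a killer cell lectin-like receptor, had 1 and 0 counts in deltaEmu and 165 and 320 in RAG2_deficient (adjusted p = 0.000533). In all 5 genes the groups were far apart, and 2KO lay between them or near RAG2_deficient.

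Pydc4, of the Ifi200 cluster, was at 1.35 and 0.415 CPM in deltaEmu and 18.02 and 34.97 CPM in RAG2_deficient (adjusted p = 0.00901, and 0.0715 and 0.0892 without deltaEmu replicates 5 and 7). Eps8l1 had no count in deltaEmu and stood at 7.89 and 8.202 CPM in RAG2_deficient (at least 49.1-fold lower, adjusted p = 0.00901, and 0.0801 and 0.0648 without the same libraries). The neuronal adhesion gene Pcdh9 (2.25 and 2.49 against 34.3 and 53.6 CPM, adjusted p = 0.000378) and the glutamate receptor gene Gria2 (1.998 and 2.01 against 23.1 and 41.3 CPM, adjusted p = 0.00139) were among the decreases that held without each library in turn. Baiap3, Fzd6, Rbm44, Loxl2, Rab6b and Cthrc1 complete the 15. Of those, Fzd6 was lost without deltaEmu replicate 5 (0.0991) or replicate 7 (0.0693) and Loxl2 without replicate 5 (0.0521).

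In the Trim5 and Trim30 cluster of chromosome 7, of 12 members 5 fell and 1 rose (median log2 -0.37). Besides Trim12a and Trim5, Trim30d (8.69 and 2.07 against 46.7 and 57.2 CPM, adjusted p = 0.0177), Trim6 (1.25 and 1.13 against 5.903 and 6.14 CPM, adjusted p = 0.00466) and Trim34a (15.7 and 11.7 against 33.1 and 45.9 CPM, adjusted p = 0.0181) fell. Trim30c rose (7.49 and 5.21 against 2.05 and 2.73 CPM, adjusted p = 0.031). Trim12c, a close copy of Trim12a, was at 76.7 and 88.8 CPM in deltaEmu and 92.7 and 93.6 CPM in RAG2_deficient (adjusted p = 0.57), so neighbours in the cluster moved unequally, and reads may be shared between copies. Trim34a and Trim6 were lost without deltaEmu replicate 5 (0.0695 to 0.11), these and Trim30d without deltaEmu replicate 7 (0.0657 to 0.155), and Trim30c without deltaEmu replicate 5 (0.28), replicate 7 (0.0928) or 2KO replicate 1 (0.0543).

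The promoters of Trim12a and Trim5 are shown because these genes had the largest decreases of the cluster while their promoters carry the core of the interferon-stimulated response element (ISRE), the site through which interferon acts. Each window runs from 250 bases before to 50 after the start site of the RefSeq annotation of GRCm38.p6, on the minus strand, with the ISRE core (GAAA, any pair of bases, then GAAA again, or its reverse complement) in capitals.
Trim12a (chr7:104315446-104315745): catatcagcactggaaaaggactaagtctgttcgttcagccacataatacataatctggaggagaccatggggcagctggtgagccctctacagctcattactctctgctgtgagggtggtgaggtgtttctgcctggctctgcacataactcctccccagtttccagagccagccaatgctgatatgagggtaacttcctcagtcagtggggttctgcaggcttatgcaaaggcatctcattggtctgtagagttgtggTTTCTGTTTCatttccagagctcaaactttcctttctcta
Trim5 (chr7:104288057-104288356): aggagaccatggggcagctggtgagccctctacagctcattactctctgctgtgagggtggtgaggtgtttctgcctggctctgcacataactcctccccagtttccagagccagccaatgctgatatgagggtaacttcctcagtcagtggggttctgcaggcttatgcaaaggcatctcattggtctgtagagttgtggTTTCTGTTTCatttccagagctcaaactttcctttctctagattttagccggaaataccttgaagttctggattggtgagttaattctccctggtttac
The core lay at position 10 from the start site in Trim12a and at -49 in Trim5. It sits in a stretch that both windows share base for base, so only the annotated start site differs around it. Searched on both strands, it was found in 7 of 12 promoters of the cluster (58.3%) and in 3.99% of all 27025 promoters. The 7 included Trim12c and Trim30a, which were not called. Copies within a cluster can share promoter sequence, so the 7 are not independent matches. Of the genes called higher with a promoter in the table, 14 of 336 (4.17%) held it, of those called lower 36 of 555 (6.49%), and of all tested genes 3.92%. A match is a description of sequence only.

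In the Ifi200 cluster of chromosome 1, of 10 members 2 rose, Ifi202b and Ifi205 (33.97 and 14.9 against 7.52 and 7.17 CPM, adjusted p = 0.0259), and 2 fell, Pydc4 and Pyhin1 (102 and 79.2 against 182 and 262 CPM, adjusted p = 0.021). Mndal, at a higher level in deltaEmu than these 4, did not pass the test (231 and 181 against 134 and 176 CPM, adjusted p = 0.272). Ifi202b was called without each of the 6 libraries in turn. Ifi205 was lost without deltaEmu replicate 5 (0.195) or RAG2_deficient replicate 2 (0.0607), and Pyhin1 without deltaEmu replicate 5 (0.13) or replicate 7 (0.185).

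Near the altered loci the share of genes called in either direction lay close to that of all genes, but every call there was lower in deltaEmu. Without immunoglobulin genes, 1452 of 15860 tested genes (9.16%) were called, 589 of them higher and 863 lower. The share ran from 6.56% on chromosome 19 to 12% on chromosome 18 among the autosomes. Within 5 Mb of Ighm, 6 of 78 such genes (7.69%) were called, all lower: Cep170b, Adam6b, Gm30948, Gm19331, Gm5441 and Rapgef5. Within 5 Mb of Rag2, 5 of 41 (12.2%) were called, all lower: Rag1, Gm13919, Gm13920, Cd59a and Prrg4, named after their values were seen. Cd59a, a regulator of complement, stood at 1.499 and 2.19 CPM in deltaEmu and 7.27 and 6.45 CPM in RAG2_deficient (adjusted p = 0.0138). It was lost without deltaEmu replicate 5 (0.167) or replicate 7 (0.0789). Of 8 of these genes followed further, 7 were lost without deltaEmu replicate 5 and 7 without replicate 7.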

How the data were processed

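Values are raw counts, deposited by the authors in 1 table of 46959 gene entries and 100 spiked-in control entries. The controls stayed out of library sizes and tests. Per the labels' protocols, RNA came from a miRNeasy kit and libraries from a stranded total RNA kit. The submitters' processing notes name STAR 2.4.0a, featureCounts (Subread 1.4.6-p1) and mm10/GRCm38. Whether counting used strand, which annotation it used and how it took reads with several matches is not stated in the sources used here, so near-identical, overlapping and antisense genes are uncertain.

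In R 4.3.3, genes of chromosomes X and Y were dropped, and the others were filtered (filterByExpr, minimum count 10), scaled by TMM and tested with edgeR 4.0.16, by the quasi-likelihood F test with Benjamini-Hochberg adjustment. The 6 femoral libraries shared 1 fit (3 residual degrees of freedom, no covariate). Every adjusted p is from this test unless another is named. CPM are counts scaled to the TMM-adjusted library size, with mean ± SD (n = 2), and log2 fold changes (deltaEmu over RAG2_deficient) carry ± SE. Immunoglobulin sums were tested in the same fit. The smallest p of an exact permutation test of 2 libraries against 2 is 0.333. Lists are described by counts and medians, with no set test. The members and lists were chosen with earlier results of these data known.

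Named genes are, per direction, the 15 calls of largest size with no overlap between the groups and at least 5 CPM in the higher group, without predicted names, pseudogenes or V, D and J segments. Added to them are, per list, the 3 smallest adjusted p, the highest level and every called member, and fixed genes. Not each is given in the text. Bounds use 3 counts per library, and 95% intervals cover counting error only. The test was tried on simulated counts. DESeq2 1.42.0, other scalings and filters, and fits without each library served as alternatives.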

Additional observations from a re-analysis of the deposited data

Results flagged for a closer look

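The 4 Y-linked genes Ddx3y, Eif2s3y, Kdm5d and Uty lie outside the comparison, which leaves out chromosomes X and Y. Their summed level was 148.2 CPM on average in deltaEmu, against 0.311 and 0 CPM in the RAG2_deficient libraries, and 120 and 113 CPM in 2KO. Xist, which is transcribed from an inactive X chromosome, was at 687 and 818 CPM in deltaEmu and 1220 and 2930 CPM in RAG2_deficient. Xist and Y-linked transcripts thus stood side by side in the deltaEmu libraries. The sex of the animals is not among the labels used here, and its part in the differences of other genes was not tested.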

How the results depend on the processing

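The count of 1585 called genes stayed within 1.5 times with DESeq2's size factors (1584), DESeq2's own test (2029), the 4 libraries alone (1238), chromosomes X and Y kept in (1622), and immunoglobulin, mitochondrial and ribosomal RNA genes removed (1377). Only 1448 of the 1585 were still tested after that removal. Of the 1377, 40.5% were higher in deltaEmu. Of the 1585, 45% were higher, but so were 589 of the 1452 that are not immunoglobulin genes. With no filter on low counts it was 3192 (1360 higher, 1832 lower), 1583 of the 1585 among them, and the list members called higher became 96 where 57 were called before. Leaving out 1 library, the count ranged from 251 (without deltaEmu replicate 5) to 5256 (without RAG2_deficient replicate 1), the higher calls from 187 to 2616, the lower calls from 64 to 2640, the list members called higher from 19 to 127 and those called lower, 61 with all libraries, from 9 to 81. The share of higher calls was 74.5% without deltaEmu replicate 5 and 63.6% without deltaEmu replicate 7. A group left with 1 library is then assumed to vary like the others. None of the 9 immunoglobulin sums changed its call under any of these alternatives in which it was fitted, but the D sum moved from -6.20 to -5.32 and -8.08 without deltaEmu replicates 5 and 7. Of 182 followed genes that were called, 63 were called in all 6 leave-one-out fits. Genes near 0 changed sign between libraries left out: Ighm between -0.15 and 0.12 (0.12 without deltaEmu replicate 5, 0.04 without RAG2_deficient replicate 2), Prdm1 between -0.20 and 0.48 (-0.01 and -0.20 without deltaEmu replicate 5 and RAG2_deficient replicate 1), Tmem121 between -0.28 and 0.27 (0.22 and 0.27 without deltaEmu replicate 5 and RAG2_deficient replicate 2), Kit between -0.36 and 0.20 (0.01 and 0.20 without deltaEmu replicate 7 and RAG2_deficient replicate 2) and H2-Oa between -0.47 and 0.28 (the latter without RAG2_deficient replicate 1). No paired analysis was possible because the groups share no replicate number. With 2 libraries a group, the smallest change called was 0.56 on the log2 scale (Hspa13). In the fit of the 4 compared libraries alone, 15 followed genes lost their calls and 0 gained one. The 15 were Acp5, Ccr2, Col1a2, Csf1r, Cxcr2, Elane, Hspa5, Hyou1, Igkj3, Ltf, Mpo, Ngp, Pdia4, Prrg4 and Trim30c. By DESeq2, Ighv1-23 and Tnfrsf17 lost their calls and 7 followed genes gained one.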

Other observations

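Several further gene lists held a few calls each, where 4.45% of all tested genes were called higher and 5.45% lower. Of 11 tested genes of the interleukin 7 receptor pathway, which drives precursor B cell growth, the feedback inhibitors Socs2 (10.1 and 12.1 CPM in deltaEmu, 25.5 and 33.4 CPM in RAG2_deficient, adjusted p = 0.00979) and Cish (adjusted p = 0.0452) fell and 0 rose. Both went against most of that list, in which 7 genes had positive fold changes (median log2 0.12). In the Bcl2 family of cell death regulators, 2 of 14 rose (median log2 0.22): Bcl2a1d (3.25 and 3.20 CPM in deltaEmu, 0.808 and 0.722 CPM in RAG2_deficient, adjusted p = 0.0103) and Pmaip1, which encodes NOXA (adjusted p = 0.0166). Of 10 histone deacetylases 2 fell (median log2 -0.01): Hdac11 (3.35 and 5.04 CPM in deltaEmu, 18.1 and 22.7 CPM in RAG2_deficient, log2 -2.29 ± 0.27, adjusted p = 0.00277) and Hdac7 (adjusted p = 0.0226). Of 14 homing receptors S1pr1, Ccr9 and Cxcr5 fell and Ccr10 rose, while 10 of the 14 had positive fold changes (median log2 0.35). The bone-resorbing osteoclast genes Ctsk (1.898 and 2.01 CPM in deltaEmu, 6.71 and 4.54 CPM in RAG2_deficient, adjusted p = 0.027) and Acp5 (adjusted p = 0.0452) fell, among 5 tested (median log2 -0.80). Of 11 endothelial genes Stab2 and Eng fell and Tie1 rose (median log2 -0.75). The Hdac11 call held without each of the 6 libraries in turn. Leaving aside Ccr10 and Cxcr5, the other calls among these genes were lost without deltaEmu replicate 5 (adjusted p 0.102 to 0.344) and without deltaEmu replicate 7 (0.0789 to 0.251). Cish (0.106) and Eng (0.0735) were lost without RAG2_deficient replicate 2, and Acp5 without 2KO replicate 1 (0.0902) or 2KO replicate 3 (0.0871).

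Immediate early genes, which cells switch on within minutes of a stimulus or of handling, were higher in deltaEmu. They were chosen after their values were seen. Fos stood at 2248 and 1750 CPM in deltaEmu and 402 and 174 CPM in RAG2_deficient (log2 2.79 ± 0.43, adjusted p = 0.00767), Fosb at 477 and 421 CPM against 46.9 and 34.4 CPM (log2 3.47 ± 0.23, adjusted p = 0.000272) and Jun at 1292 and 1175 CPM against 199.6 and 97.8 CPM (log2 3.05 ± 0.37, adjusted p = 0.00312). Egr1, Atf3, Dusp1, Junb and Ier2 rose too, as did the chaperone genes Hsph1 (141 and 123 CPM in deltaEmu, 32.2 and 58.5 CPM in RAG2_deficient, adjusted p = 0.0152) and Dnajb1 (114 and 121 CPM against 65.6 and 49.1 CPM, adjusted p = 0.0142). The chaperone genes Hspa8 and Hsp90aa1 were not called (adjusted p = 0.21 and 0.0876), though both were by DESeq2 (0.0294 and 0.00139) and Hsp90aa1 without RAG2_deficient replicate 1 (0.0245). Without that library Fos was at log2 3.53 and Jun at 3.67. Of these 10 genes that rose, Dnajb1, Fos, Hsph1, Ier2 and Junb were lost without deltaEmu replicate 5 (adjusted p 0.0757 to 0.213) and 4 without deltaEmu replicate 7 (0.0824 to 0.117).

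Some genes were close to absent from 1 group. With at most 3 counts in each library of one group and at least 5 CPM in the other, 20 genes met this description, 7 present in deltaEmu and 13 in RAG2_deficient, in 18 windows of 5 Mb. BC018473, an antisense transcript on chromosome 11 (chr11:116752167-116759373), stood at 255 and 255 CPM in deltaEmu, with no count in RAG2_deficient (at least 1495-fold, adjusted p = 0.000189) and 58.2 and 115 CPM in 2KO. 6820402A03Rik had no count in deltaEmu and was at 15.6 and 40.2 CPM in RAG2_deficient (at least 170.4-fold lower, adjusted p = 0.00262). In the 4 splenic libraries, of strain 129 by their labels and given as CPM of the unadjusted total, 5 of the 13 genes absent from deltaEmu exceeded 1 CPM in every library (Rbm44, Hmgb1-ps8, Eps8l1, Trim5 and Trim12a, the last at 47.8 to 63.6 CPM). Of the 7 absent from RAG2_deficient, Gbp2b alone did (24.6 to 31.7 CPM), and 5 had at most 3 counts in each splenic library, Ifi202b and Ifi44l among them. The labels of all 4 splenic libraries name lipopolysaccharide and IL4 (interleukin 4), and those of some also name the compound SAHA. Titles and descriptions differ on which ones received SAHA. Splenic cells were thus of another tissue, strain, culture and treatment, so these values are set side by side without a comparison.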
